A study of Homo sapiens with 8 samples.

Results

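The genes described here are 7 acute-phase and complement genes that inflammatory cytokines are known to induce: LCN2, C3, CFB, SAA1, SAA2, PTX3 and SOD2. They were chosen by name, and every probe set that the array annotation assigns to them was taken, which gave 15 probe sets of 49386 on the array and 7 genes of 18239. Of the 15 probe sets, 2 name SAA1 and SAA2 together, and 9 passed the filter on low values (over 4.41 on the log2 scale on at least 2 arrays). Of the genes, 5 were tested (C3, CFB, SAA1, PTX3 and SOD2), and LCN2 and SAA2 were not, because their probe sets lay under the filter.

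The study asked how expression changes when MET, the receptor of hepatocyte growth factor, is depleted in brain-metastatic breast cancer lines. The 8 arrays form 4 groups of 2: SKBrM3 with doxycycline, SKBrM3 without it, 231BrM with doxycycline and 231BrM without it. SKBrM3 and 231BrM are labelled as lines that metastasise to brain, derived from breast cancer cells, and both were engineered with a MET hairpin that doxycycline switches on (SKBrM3/Dox/shMet and 231BrM/Dox/shMet). The untreated groups carry it too, and all were grown in DMEM with 10% serum. Treated cells received 100 ng of doxycycline, with no volume given, for 48 h. No group received doxycycline without the hairpin, so doxycycline itself and the hairpin cannot be told apart, and the labels name 1 hairpin-bearing line of each kind.

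The acute-phase response is the change in secreted proteins that follows infection or injury. Interleukin-1, interleukin-6 and tumour necrosis factor start it, acting through the transcription factors NF-kB, C/EBP and STAT3, mostly in liver but also in epithelial and tumour cells. Among the secreted products, serum amyloid A proteins travel with high-density lipoprotein, and C3 and factor B (CFB) build the alternative complement pathway. Lipocalin 2 (LCN2) binds bacterial siderophores, and pentraxin 3 (PTX3) binds C1q and microbes. SOD2, also induced by inflammatory cytokines, is the mitochondrial manganese superoxide dismutase and is not a secreted protein.

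The promoters of LCN2, CFB and PTX3 are shown because these 3 genes carry the same kind of NF-kB match and differed in level: LCN2 stood between the 18.0 and 33.7 percentiles of an array's probe sets, CFB between 41.0 and 62.7, and PTX3 between 97.7 and 99.4. Each is the 300-base window around the RefSeq start (250 bases before it and 50 after, GRCh38.p14, plus strand), and capitals mark a match to the NF-kB consensus on either strand. LCN2 is at chr9:128149203-128149502, CFB at chr6:31945845-31946144 and PTX3 at chr3:157436600-157436899.
LCN2: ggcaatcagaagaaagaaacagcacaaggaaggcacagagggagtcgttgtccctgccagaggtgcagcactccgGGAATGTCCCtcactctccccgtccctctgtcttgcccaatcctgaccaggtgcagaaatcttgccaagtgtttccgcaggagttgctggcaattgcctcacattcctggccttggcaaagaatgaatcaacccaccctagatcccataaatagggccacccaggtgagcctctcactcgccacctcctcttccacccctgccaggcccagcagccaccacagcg
CFB: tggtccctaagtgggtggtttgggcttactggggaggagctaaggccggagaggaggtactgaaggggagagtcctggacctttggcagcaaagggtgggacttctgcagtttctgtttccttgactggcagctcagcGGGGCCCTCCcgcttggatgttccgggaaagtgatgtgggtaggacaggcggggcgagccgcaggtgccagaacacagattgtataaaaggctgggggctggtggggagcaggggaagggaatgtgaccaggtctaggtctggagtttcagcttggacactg
PTX3: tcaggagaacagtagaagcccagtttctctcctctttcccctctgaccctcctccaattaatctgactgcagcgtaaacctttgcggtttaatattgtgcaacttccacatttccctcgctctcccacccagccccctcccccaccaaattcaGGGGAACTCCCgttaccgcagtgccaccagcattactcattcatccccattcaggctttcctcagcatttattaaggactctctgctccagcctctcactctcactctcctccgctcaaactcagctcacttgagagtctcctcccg
The match began 175 bases before the start in LCN2 (on the minus strand) and 112 bases before it in CFB. In PTX3, 2 overlapping matches began 97 and 96 bases before it. Of 35116 promoter windows of that length, 11.3% hold such a match. The STAT core TTCNNNGAA was found in CFB, 92 bases before the start, and in 7.66% of windows. The C/EBP core TTNNGNAA was found in LCN2 and PTX3, 143 and 156 bases before the start, and in 36.8% of windows, and TATAAA was found in CFB and in 11.5%. The motifs were searched on both strands, none of these matches overlaps one of another motif, and a match is a run of letters, not a shown site. SOD2 has 4 windows in the table, none of them with an NF-kB match and 1 with a C/EBP match 33 bases before its start. C3, SAA1 and SAA2 have no window there, so they were not searched for any motif and no sequence is printed.

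MET, the hairpin's target, was at 5.76 and 5.71 log2 units in SKBrM3 with doxycycline, against 9.25 and 9.20 without it. In 231BrM it was at 5.85 and 5.35 with doxycycline, against 9.45 and 9.26 without it. The differences were -3.50 and -3.76 log2 units, each with a limma adjusted p under the threshold of 0.05. Under the mean of all MET probe sets they were -1.88 in SKBrM3 and -1.71 in 231BrM, and without the 231BrM array described next the 231BrM difference was -4.01. Markers of the parental lines went partly against the label SKBrM3, so those arrays are called by their label only. ERBB2, amplified in SK-BR-3 cells, was at 6.70 to 7.11 in SKBrM3 and at 6.76 to 6.89 in 231BrM, and 13 of 15 markers of MDA-MB-231 exceeded the filter level in SKBrM3, against 15 in 231BrM. Other values went with the label: 9 of the 15 were called lower in untreated SKBrM3 than in untreated 231BrM, CDH11 by -3.69 and SPARC by -2.73. CDH11 and SPARC lay under the filter level on every SKBrM3 array, so they entered the test only through the 231BrM arrays. The size of their differences is therefore uncertain. Of 13 tested markers of SK-BR-3, 1 (FOXA1, by 1.37) was called higher in untreated SKBrM3. Against the label, 7 were called lower, KRT19 by -2.59 and KRT7 by -1.90. Of all genes, 19.9% were called higher and 19.8% lower in this comparison. Of 17 markers of SK-BR-3 on the array, 12 exceeded the filter level in SKBrM3 and 13 in 231BrM. Their mean level was 6.02 to 6.11 on the SKBrM3 arrays and 6.41 to 6.49 on the 231BrM arrays. On replicate 1 of 231BrM with doxycycline the actin control probe sets read 1.24 log2 units higher at the 3′ than at the 5′ end, against 0.46 to 0.59 on the other 7 arrays. The 2 arrays of that group had 68 genes over 2-fold apart, against 0 to 1 in the other groups. Beside each doxycycline result below for the 7 genes, this array is named where leaving it out changes a call.

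SAA1 was high in 231BrM and low in SKBrM3. The probe set that names SAA1 alone (11733442_x_at) read 3.81 and 3.72 log2 units in SKBrM3 with doxycycline and 3.42 and 3.84 without it. In 231BrM it read 7.19 and 6.49 with doxycycline and 7.11 and 7.15 without it. Every 231BrM array lay over 2 log2 units above every SKBrM3 array, and the SKBrM3 values lay under the filter level. The first probe set that names SAA1 and SAA2 together (set A, 11756072_s_at) split the lines further, at 3.96 and 3.71 in SKBrM3 with doxycycline, 3.69 and 3.64 in SKBrM3 without it, 8.55 and 7.97 in 231BrM with doxycycline, and 8.67 and 8.89 in 231BrM without it. The second (set B, 11758938_x_at) split them least, at 4.66 and 4.68 in SKBrM3 with doxycycline, 4.21 and 4.33 in SKBrM3 without it, 6.25 and 5.69 in 231BrM with doxycycline, and 6.66 and 6.46 in 231BrM without it. The probe set that names SAA2 alone stayed between 3.01 and 3.51 on all 8 arrays. The 2 genes are near-identical copies, so the signal of a shared probe set cannot be divided between them. Whether the probe set that names SAA1 alone also reads SAA2 was not tested.

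C3, the central component of complement, was likewise higher in 231BrM. It read 3.77 and 4.12 log2 units in SKBrM3 with doxycycline, 4.14 and 4.36 in SKBrM3 without it, 6.05 and 5.36 in 231BrM with doxycycline, and 6.12 and 5.98 in 231BrM without it. The lines did not overlap, and the SKBrM3 values lay under the filter level. CFB, which forms the alternative pathway C3 convertase with C3b, read 4.67 and 4.45 in SKBrM3 with doxycycline, 4.46 and 4.51 in SKBrM3 without it, 5.73 and 5.28 in 231BrM with doxycycline, and 6.0 and 5.48 in 231BrM without it. Its lowest 231BrM array lay above its highest SKBrM3 array. The other 3 CFB probe sets stayed between 3.41 and 4.31, under the filter, so the CFB result rests on 1 probe set.

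LCN2, which carries iron-binding siderophores, was under the filter level on every array of both lines. Its probe set (11757634_a_at) read 3.82 and 3.73 log2 units in SKBrM3 with doxycycline, 3.70 and 3.85 in SKBrM3 without it, 4.16 and 3.75 in 231BrM with doxycycline, and 3.88 and 3.88 in 231BrM without it. These values stood between the 18.0 and 33.7 percentiles of all probe sets on their arrays, and the groups overlapped. The highest value was on the 231BrM doxycycline array with raised 3′ signal. No background was measured, so these values do not say whether LCN2 RNA was present.

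PTX3 was among the highest probe sets on every array and was the member that ran the other way between the lines. It read 11.54 and 11.53 log2 units in SKBrM3 with doxycycline, 11.79 and 11.78 in SKBrM3 without it, 10.80 and 10.63 in 231BrM with doxycycline, and 10.89 and 10.87 in 231BrM without it. Within each line both treated arrays lay below both untreated ones. The share of all genes with this order is not given, so the order alone is no result about PTX3. Its percentile ran between 99.2 and 99.4 in SKBrM3 and between 97.7 and 98.2 in 231BrM.

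**Figure D1:**
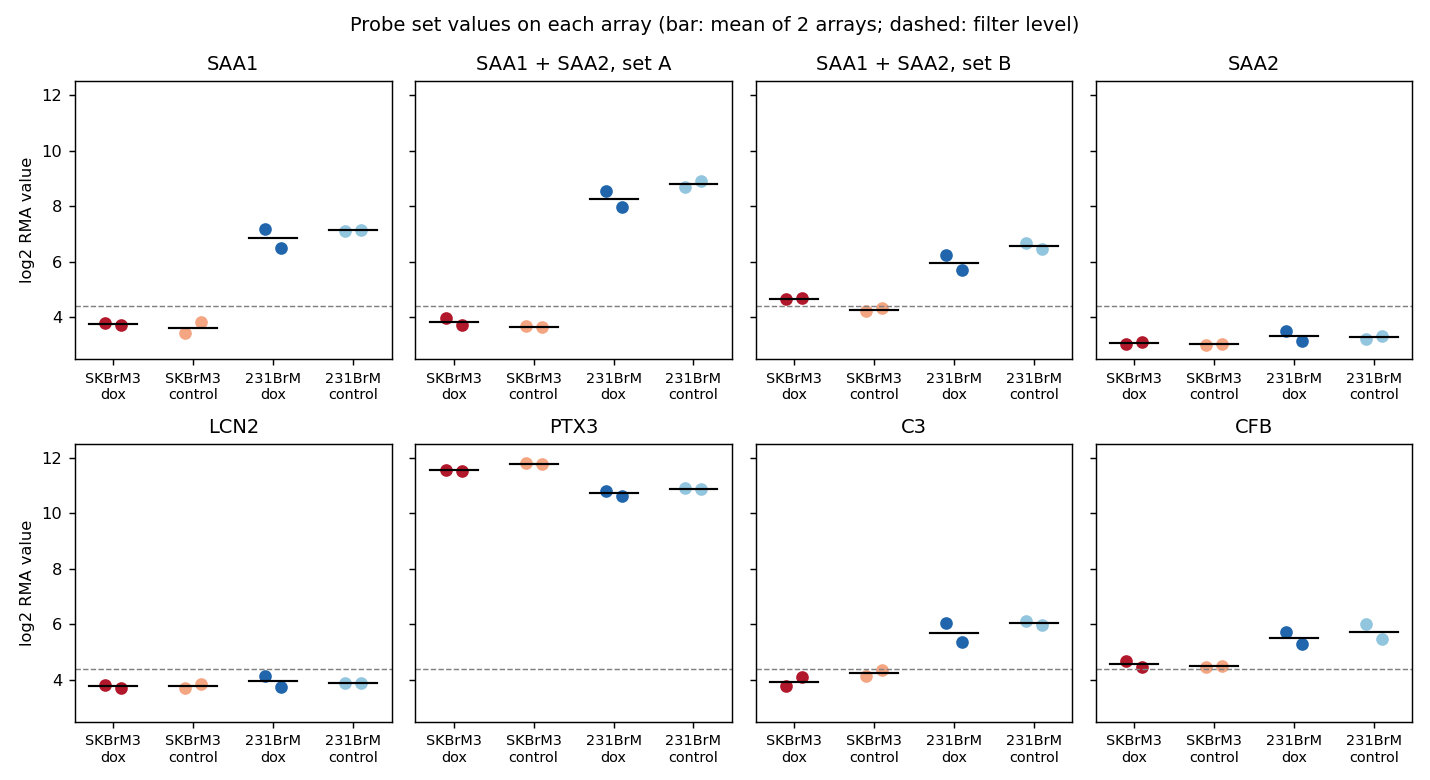
Log2 RMA value (vertical axis) of 8 probe sets of SAA1, SAA2, LCN2, PTX3, C3 and CFB on each array, by group (horizontal axis), with 1 point per array, a bar at the mean of the 2 arrays and a dashed line at the filter level of 4.41. SAA1, the shared SAA probe sets, C3 and CFB lie lower in SKBrM3 than in 231BrM, PTX3 lies higher in SKBrM3, and LCN2 and SAA2 lie under the dashed line in all groups.

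SOD2 was at a middling to high level that hardly separated the lines. Its highest probe set (set A, 11725024_a_at) read 7.56 and 7.54 log2 units in SKBrM3 with doxycycline, 7.77 and 7.75 in SKBrM3 without it, 7.50 and 7.34 in 231BrM with doxycycline, and 7.60 and 7.76 in 231BrM without it. In each line both treated arrays lay below both untreated ones. The share of all genes with this order is not given, so the order alone is no result about SOD2. Set C (11748910_a_at), at a lower level, showed the same order with a wider gap: 5.79 and 6.0 in SKBrM3 with doxycycline, 6.55 and 6.41 in SKBrM3 without it, 5.24 and 5.63 in 231BrM with doxycycline, and 5.98 and 6.32 in 231BrM without it. Set B (11758924_x_at) read 7.35 and 7.34 in SKBrM3 with doxycycline, 7.62 and 7.51 in SKBrM3 without it, 7.34 and 7.01 in 231BrM with doxycycline, and 7.45 and 7.31 in 231BrM without it. There the treated and untreated 231BrM arrays overlapped, and set D stayed between 3.24 and 3.45 throughout.

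**Figure D2:**
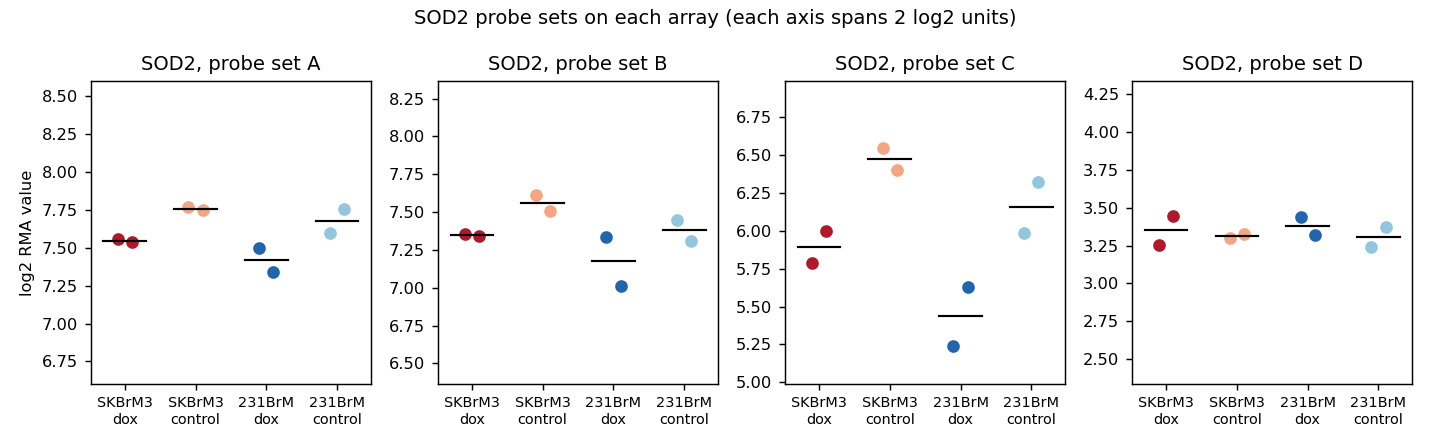
Log2 RMA value (vertical axes, each spanning 2 log2 units) of the 4 SOD2 probe sets on each array, by group (horizontal axis), with 1 point per array and a bar at the mean of the 2 arrays. Sets A and C have both treated arrays below both untreated arrays in each line, and set B does so in SKBrM3 only. The share of all probe sets with this order is not given. Set D stays between 3.24 and 3.45.

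Without doxycycline, SAA1, C3 and CFB were lower and PTX3 was higher in SKBrM3 than in 231BrM. SAA1 and C3 passed the filter on low values only through the 231BrM arrays, so their entry into the test was tied to this difference. SAA1 had means of 3.63 ± 0.30 log2 units in SKBrM3 and 7.13 ± 0.03 in 231BrM (SD, n = 2 each), a difference of -3.50 (SE 0.209, limma adjusted p = 6.50e-06). C3 had means of 4.25 ± 0.15 in SKBrM3 and 6.05 ± 0.10 in 231BrM, a difference of -1.80 (limma adjusted p = 0.000235). With no filter, over all genes on the array, the same differences had limma adjusted p-values of 5.97e-06 for SAA1 and 0.000239 for C3. CFB was over the filter level on all 8 arrays, but its SKBrM3 values, at 4.45 to 4.67, lay close to that level. It was lower in SKBrM3 by a difference of -1.25 (limma adjusted p = 0.000955), and the mean of its 4 probe sets gave -0.54 (limma adjusted p = 0.000674). PTX3 was 1.87-fold higher in SKBrM3, at 11.78 ± 0.01 against 10.88 ± 0.01 in 231BrM, a difference of 0.90 (limma adjusted p = 6.14e-05). SOD2 did not pass, with a difference of 0.08 and a 95% interval of -0.12 to 0.28 (limma adjusted p = 0.512). Of all 13002 genes tested, 19.9% were called higher and 19.8% lower in this comparison, so a call between the lines is common on these arrays.

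The shared SAA probe sets gave the same direction in a fit over 29613 probe sets. Set A was lower in SKBrM3 by a difference of -5.12 (SE 0.190, limma adjusted p = 7.93e-06) and set B by -2.29 (limma adjusted p = 0.000170), where 17.0% of probe sets were called lower. Set A passed the filter on low values only through the 231BrM arrays, so its entry into the test was tied to this difference. With doxycycline in both lines, the differences of SKBrM3 from 231BrM were -3.08 for SAA1, -1.76 for C3, -0.95 for CFB, 0.83 for PTX3 and 0.13 for SOD2. SAA1, C3 and shared SAA set A lay in SKBrM3 at levels where log2 values of this kind compress, and CFB lay close to such levels. No background was measured, so no fold is given for any of these. In a bulk culture, fewer cells expressing a gene and less RNA per cell cannot be told apart.

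With doxycycline in SKBrM3, none of CFB, PTX3 and SOD2 passed, where 3.43% of all genes did. C3 and SAA1 were fitted too, but they lay under the filter level on all 4 SKBrM3 arrays, so a change there was not measurable. PTX3 was the nearest: it averaged 11.54 ± 0.01 with doxycycline and 11.78 ± 0.01 without it (SD, n = 2 each), a difference of -0.25 (SE 0.0809, unadjusted p = 0.0149, limma adjusted p = 0.142). That result depended on how the spread was estimated. It passed without either 231BrM doxycycline array (limma adjusted p = 0.0401 without replicate 1), with array weights (limma adjusted p = 0.0368) and with an intensity trend (limma adjusted p = 0.0313), at the same difference. SOD2 averaged 7.55 ± 0.02 with doxycycline and 7.76 ± 0.01 without it, a difference of -0.21 (limma adjusted p = 0.229). CFB differed by 0.07 (limma adjusted p = 0.870), and the fitted values of C3 and SAA1 were -0.30 and 0.13 (limma adjusted p = 0.456 and 0.767). At an unadjusted p under 0.05, PTX3 and SOD2 were lower and 0 genes were higher, where 9.81% of all genes were lower and 10.4% higher.

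With doxycycline in 231BrM, 0 of the 5 genes passed, against 0.162% of all genes. All 5 differences were below 0, where 35.8% of all genes were: -0.34 for C3, -0.29 for SAA1, -0.26 for SOD2, -0.23 for CFB and -0.17 for PTX3. Their limma adjusted p-values ran from 0.430 for SOD2, the gene with an unadjusted p under 0.05 (3.74% of all genes were lower at it and 6.15% higher), to 0.673 for CFB. The median was -0.26 over these genes and 0.05 over all genes tested. The 2 treated 231BrM arrays decided C3 and SAA1: without replicate 1, the array with raised 3′ signal, C3 differed by -0.69 (limma adjusted p = 0.103) and SAA1 by -0.64 (0.133), and without replicate 2 they differed by 0.000835 and 0.055. The part of RNA quality in these differences was not tested.

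The shared SAA probe sets did not pass in either line. In 231BrM, set A differed by -0.52 (unadjusted p = 0.0279, limma adjusted p = 0.590) and set B by -0.59 (unadjusted p = 0.0112, limma adjusted p = 0.539), where 0.0642% of probe sets were called. Both treated arrays lay below both untreated ones in each set. The share of all probe sets with this order is not given, so the order alone is no result about SAA. In SKBrM3 the differences were 0.17 for set A (limma adjusted p = 0.689) and 0.40 for set B (limma adjusted p = 0.298), where 1.41% were called. Set A lay under the filter level on every SKBrM3 array, so a change there was not measurable. Set B lay under that level on both untreated SKBrM3 arrays, so the size of its difference is uncertain. In 231BrM the differences depended on which treated array was kept. Without replicate 1, the array with raised 3′ signal, set B differed by -0.87 (limma adjusted p = 0.0300) and set A by -0.81 (limma adjusted p = 0.0728). Without replicate 2, set B differed by -0.31 (limma adjusted p = 0.0879) and set A by -0.23 (limma adjusted p = 0.261). In SKBrM3, set B passed at 0.40 without either of these 2 arrays (limma adjusted p = 0.0328 for each).

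Of the other SOD2 probe sets, set C had the widest doxycycline difference. It differed by -0.58 in SKBrM3 (unadjusted p = 0.00960, limma adjusted p = 0.151) and by -0.72 in 231BrM (SE 0.167, unadjusted p = 0.00327, limma adjusted p = 0.408). In SKBrM3 it passed without either treated 231BrM array (limma adjusted p = 0.0302 for each) and with array weights (0.0391). In 231BrM it passed without replicate 2, at -0.92 (limma adjusted p = 0.00721), which leaves the array with raised 3′ signal as the treated one. Without replicate 1 instead, it differed by -0.52 (limma adjusted p = 0.307). Set B differed by -0.21 in each line.

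The doxycycline effect was not shown to differ between the lines for any of the 5 genes, where 0.0231% of all genes were called. None of them had an unadjusted p under 0.05 either. The difference of the effects, SKBrM3 minus 231BrM, was 0.43 for SAA1 (limma adjusted p = 0.621) and 0.31 for CFB (limma adjusted p = 0.698), and it lay between -0.08 and 0.05 for PTX3, C3 and SOD2. For C3, SAA1 and shared SAA set A it rests on SKBrM3 values under the filter level. For shared SAA set B the untreated SKBrM3 values lay under that level. With 2 arrays a group the interval is wide, at -0.25 to 1.10 for SAA1. For the shared SAA probe sets it was 0.70 for set A (limma adjusted p = 0.501) and 0.99 for set B (unadjusted p = 0.00480, limma adjusted p = 0.438), where 0 of all probe sets were called, which is 0%. Set B passed without replicate 2 of 231BrM with doxycycline, at 0.71 (limma adjusted p = 0.0265), and under no other array left out.

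The mean of the effects over both lines, a comparison chosen after the values were seen, was -0.24 for SOD2 (unadjusted p = 0.00506, limma adjusted p = 0.0926) and -0.21 for PTX3 (unadjusted p = 0.00595, limma adjusted p = 0.100). Here 0 of 5 genes passed, against 3.04% of all genes. Without replicate 1 of 231BrM with doxycycline 3 passed: C3 at -0.50 (limma adjusted p = 0.0213), PTX3 at -0.25 (0.0268) and SOD2 at -0.28 (0.0326). Without replicate 2, 2 passed: PTX3 at -0.17 (0.0452) and SOD2 at -0.20 (0.0443). The C3 and SAA1 means include SKBrM3 values under the filter level. SOD2 set C averaged -0.65 (unadjusted p = 0.000801, limma adjusted p = 0.0523), where 1.43% of probe sets were called, and it passed without either 231BrM doxycycline array and with array weights (limma adjusted p = 0.0427). CFB and SAA1 each averaged -0.08.

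**Figure D3:**
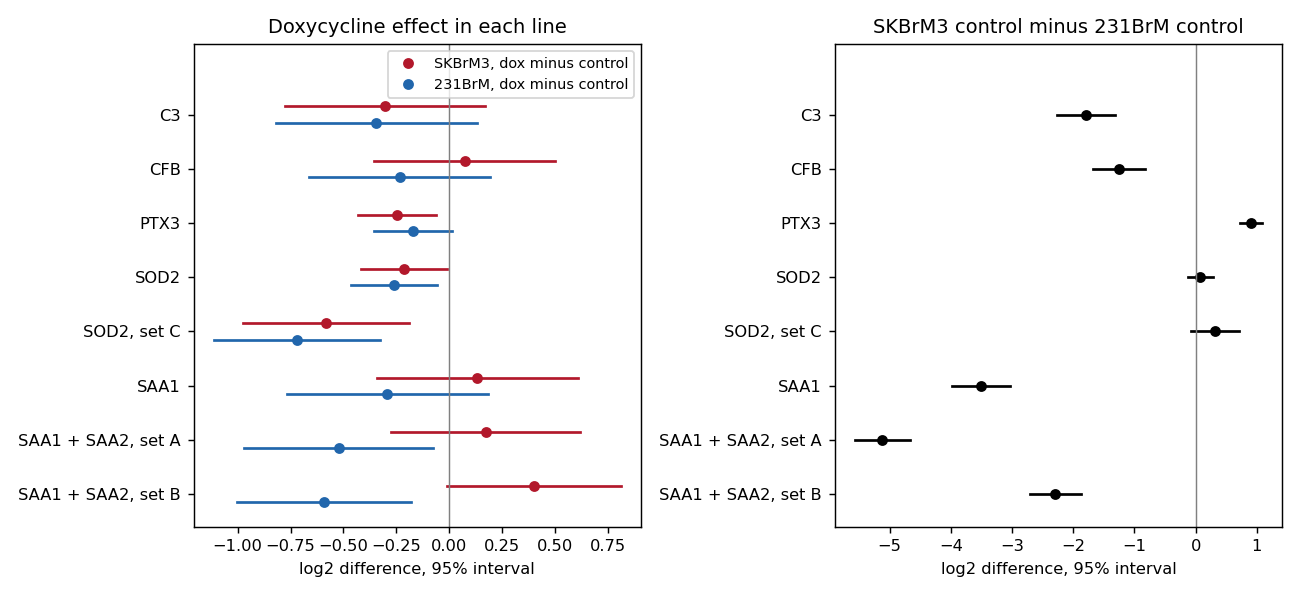
Left, doxycycline minus control difference (horizontal axis, log2 units) in SKBrM3 and in 231BrM; right, SKBrM3 control minus 231BrM control. Rows are genes or probe sets, points are limma estimates and lines are 95% intervals. All 231BrM differences in the left panel lie below 0, while CFB, SAA1 and both shared SAA probe sets lie above 0 in SKBrM3. SAA1, C3 and shared set A were under the filter level on every SKBrM3 array, so a change there was not measurable. In the right panel SAA1 lies at -3.50, shared set A at -5.12 and PTX3 at 0.90.

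Around these genes, the rest of the complement system did not pass in either line with doxycycline. For this and each list below, the shares of all genes called with doxycycline were 3.43% in SKBrM3 and 0.162% in 231BrM. At an unadjusted p under 0.05, 9.81% of all genes were lower and 10.4% higher in SKBrM3, and 3.74% were lower and 6.15% higher in 231BrM. Of 10 tested complement components 0 passed in SKBrM3 and 0 in 231BrM, with medians of -0.09 in SKBrM3 and 0.06 in 231BrM, and at an unadjusted p under 0.05 there were 2 lower in SKBrM3 and 0 in 231BrM. Of 8 tested regulators and receptors 0 passed in either line, with medians of 0.02 in SKBrM3 and 0.07 in 231BrM, and at that unadjusted p there was 1 lower in SKBrM3 and 0 in 231BrM. Between the untreated lines 2 components and 4 regulators were called: C8B, C1QBP and CLU were higher in SKBrM3, and CFD, CD46 and CD55 were lower. Set against the 19.9% of all genes called higher and 19.8% called lower, these counts are no result about complement. CFD, the protease that cleaves factor B, differed by -0.48 (limma adjusted p = 0.0256), and CD55, which speeds the decay of C3 convertases, by -0.55 (limma adjusted p = 0.00173).

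The liver's plasma acute-phase proteins were mostly under the filter, with 7 of 21 on the array tested. Haemopexin (HPX), which binds free haem, fell in SKBrM3 with doxycycline, at 4.91 and 5.0 log2 units against 5.46 and 5.28 without it (difference -0.42, limma adjusted p = 0.0421). It lost that call without any 1 of the SKBrM3 arrays (limma adjusted p up to 0.270), without either untreated 231BrM array, under the mean of its probe sets, where it differed by -0.18, with all probe sets fitted together (0.0828) and with arrays centred on their median (0.0625), among other settings. In 231BrM it read 5.33 and 5.28 with doxycycline, against 5.01 and 5.08 without it, a difference of 0.26 that did not pass (limma adjusted p = 0.421). Of the 7, 0 passed in 231BrM by limma. At an unadjusted p under 0.05, 2 were higher and 2 lower in SKBrM3, and 1 was higher and 0 lower in 231BrM. The list's medians were 0.03 in SKBrM3 and 0.16 in 231BrM.

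Among 7 tested inducing cytokines, IL1B, which encodes interleukin-1 beta, fell in both lines. It read 7.40 and 7.54 in SKBrM3 with doxycycline, against 9.04 and 9.34 without it (difference -1.72, limma adjusted p = 0.000163). In 231BrM it read 9.85 and 9.81 with doxycycline, against 10.75 and 10.70 without it (difference -0.90, limma adjusted p = 0.0216). The SKBrM3 call held under every alternative run, and the 231BrM call was lost without either untreated 231BrM array (limma adjusted p = 0.363 and 0.288), without either treated SKBrM3 array (0.0610), with all probe sets fitted together (0.0776), with array weights (0.0995) and in the fit of its own 4 arrays (0.124). Between the untreated lines IL1A, IL1B, IL6 and IL11 were called lower in SKBrM3, IL1A by a difference of -3.98 and IL6 by -1.48. These are 4 of the 7 tested, where 19.8% of all genes were called lower. IL1A read 4.39 and 4.49 in untreated SKBrM3, close to the filter level, so the size of its difference is uncertain. IL1A did not pass with doxycycline in 231BrM, at 7.75 and 7.19 against 8.37 and 8.47 without it (difference -0.95, limma adjusted p = 0.111). Of the 7 cytokines, 2 were lower in SKBrM3 and 4 in 231BrM with doxycycline at an unadjusted p under 0.05, and 0 were higher. Of all genes, 9.81% were lower at it in SKBrM3 and 3.74% in 231BrM.

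Of 14 tested transcription factors and regulators of the response, 3 fell in SKBrM3 with doxycycline, where 3.43% of all genes were called. In 231BrM 0 passed, against 0.162% of all genes, and 3 were lower at an unadjusted p under 0.05, against 3.74%. In SKBrM3 6 were lower at that unadjusted p, against 9.81% of all genes, and 0 were higher in either line. CEBPD, a C/EBP family factor induced in inflammation, read 6.89 and 6.99 in SKBrM3 with doxycycline, against 7.64 and 7.72 without it (difference -0.74, limma adjusted p = 0.00295). NFKBIA, the NF-kB inhibitor that is itself an NF-kB target, differed by -0.82 (limma adjusted p = 0.0154), and NFKBIZ, a nuclear cofactor of NF-kB, by -0.67 (limma adjusted p = 0.0133). In 231BrM the same genes differed by -0.46, -0.55 and -0.41, without passing (limma adjusted p = 0.111, 0.247 and 0.280). The NFKBIA and NFKBIZ calls were lost without any 1 of the SKBrM3 arrays (limma adjusted p up to 0.139 and 0.145), and the CEBPD call without SKBrM3 control replicate 2 (0.0511) or treated replicate 1 (0.0571). Between the untreated lines 8 of the 14 were called, 7 of them lower in SKBrM3 and 1 higher, where 19.8% of all genes were called lower and 19.9% higher.

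Of 18 tested cytokine receptors and adaptors, 5 were lower in SKBrM3 and 2 in 231BrM at an unadjusted p under 0.05, and 0 were higher. Of all genes, 9.81% were lower at it in SKBrM3 and 3.74% in 231BrM. LIFR, the receptor of leukaemia inhibitory factor, fell in SKBrM3 (difference -0.61, limma adjusted p = 0.0423), and 0 of the 18 passed in 231BrM. That call too was lost without any 1 of the SKBrM3 arrays (limma adjusted p up to 0.299), without either untreated 231BrM array, under the mean of its probe sets, at -0.13, with all probe sets fitted together (0.0914) and with arrays centred on their median (0.0521). Of 7 tested partners and receptors of LCN2, SAA and PTX3, MMP9, the gelatinase that LCN2 binds, fell in SKBrM3, at 4.63 and 4.79 against 5.31 and 5.47 without doxycycline (difference -0.68, limma adjusted p = 0.00860). It lost the call without SKBrM3 control replicate 2 (0.0997) or treated replicate 1 (0.110). In 231BrM MMP9 differed by -0.53 (limma adjusted p = 0.114). Of these 7 genes, 2 were lower and 0 higher in SKBrM3 at an unadjusted p under 0.05, with 1 each way in 231BrM. Of 9 tested iron-handling genes and of 12 enzymes that act on superoxide and peroxide beside SOD2, 0 passed in either line. At an unadjusted p under 0.05, 2 iron genes were higher and 1 lower in SKBrM3, with 1 each way in 231BrM, and 2 enzymes were higher and 2 lower in SKBrM3, with 0 in 231BrM.

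**Figure D4:**
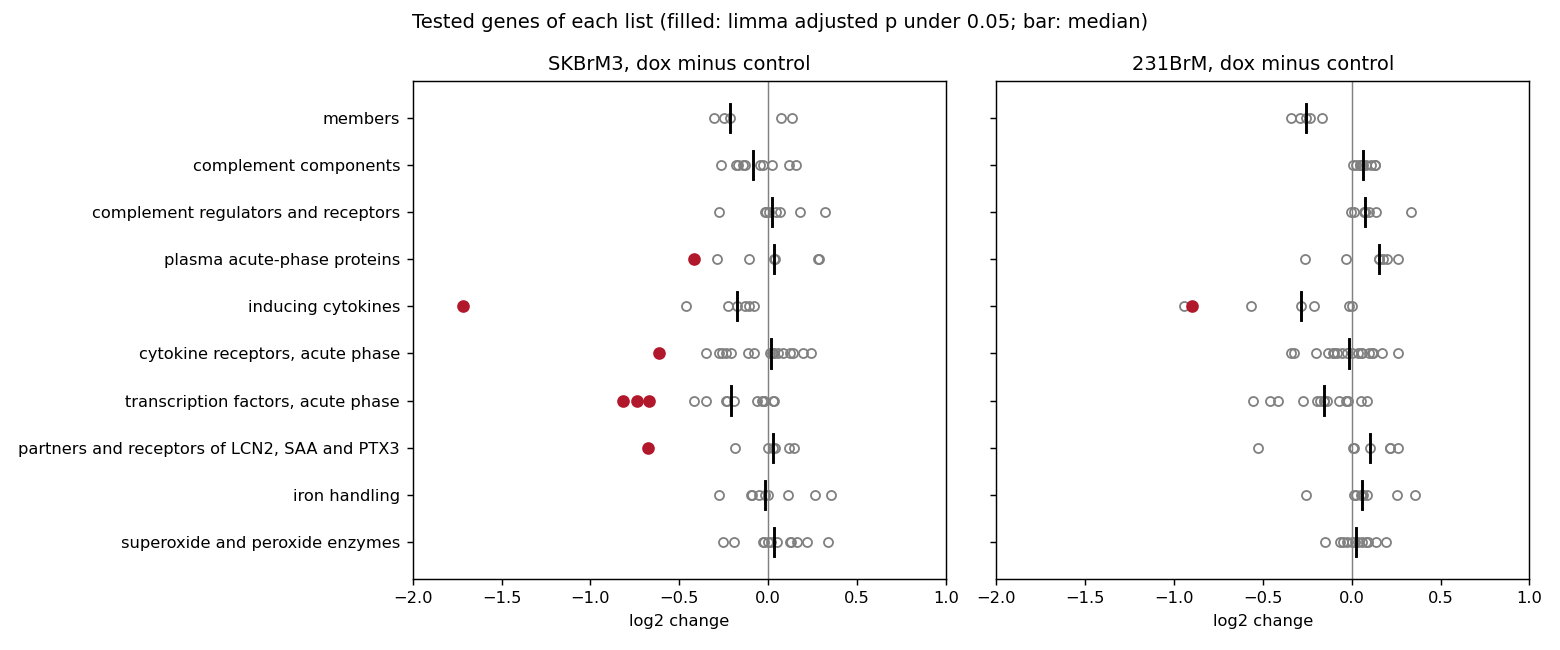
Doxycycline minus control difference (horizontal axis, log2 units) of every tested gene of each list (rows), in SKBrM3 on the left and 231BrM on the right; filled points have a limma adjusted p under 0.05 and bars are list medians. The 5 tested acute-phase and complement genes of the top row hold no filled point in either line, and IL1B is filled in both, at -1.72 in SKBrM3 and -0.90 in 231BrM.

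Of 9 hepatocyte markers on the array, 3 to 4 had a group mean over the filter level, and their mean level over the list was 4.14 to 4.24 in treated arrays and 4.09 to 4.19 in untreated ones. Of 8 leukocyte markers 4 exceeded it in each group, and the highest of these was CD68, at 8.17 to 8.37. None of the 4 tested markers of either list passed with doxycycline in either line, by limma adjusted p.

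The genes whose pattern over the 8 arrays was most like each member were found by Pearson's r, among 1097 tested genes whose group means spanned at least 1 log2 unit. With SAA1 these were ECM1, TSPAN13 and LYPD1 (r = 0.998, 0.997 and 0.997), with C3 they were RNF182, ZEB2 and TMED1 (0.992, 0.992 and 0.990), with CFB they were TFAP2A, ADAM8 and GTSE1 (0.986, 0.984 and 0.981), and with PTX3 they were AP1S2, ESM1 and PDK1 (0.998, 0.997 and 0.996). These arrays fall into 2 lines, so any gene that differs between the lines gives a high r, and the values are given as a description.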

How the data were processed

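Total RNA of 8 samples was measured on single-colour Affymetrix arrays. The deposited log2 values, 1 per probe set and array, were made by the authors with RMA, per the submitters' processing notes; the software, its version and the chip definition are not stated in the sources used here. RMA includes quantile normalization, so a change in total RNA cannot be seen, and low values have no measured background. Of 49386 probe sets, 45253 name 1 gene, by the array annotation with symbols updated through RefSeq. The probe set with the highest mean stood for a gene, and 13002 of 18239 genes exceeded 4.41 (the 40th percentile) on at least 2 arrays. Fits used limma 3.58.1 in R 4.3.3, with 4 group means, 4 residual and 4.60 prior degrees of freedom, two-sided tests and Benjamini-Hochberg adjustment over all genes or probe sets fitted. A gene was called at an adjusted p under 0.05. Named genes were all members, MET and each listed gene called with doxycycline. Up to 3 of the highest genes per list and 3 genes of most similar pattern per member were also named. Other genes called between the untreated lines, IL1A and the line markers ERBB2, CDH11, SPARC, FOXA1, KRT19 and KRT7 were named after their values were seen. The members and lists were chosen with earlier results of these data known. Whether replicates were separate cultures is not stated in the labels, and p-values therefore reflect only how these arrays vary, possibly technically; the number of arrays limits the precision. Alternatives changed the filter, probe set rule, variance model, array weights, arrays fitted, scaling, block and each array left out. The code was tested on simulated data.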

Additional observations from a re-analysis of the deposited data

How the results depend on the processing

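In the fits by gene, the 4 calls between the untreated lines, and the 0 calls in 231BrM and in the difference of the effects, held under all alternatives run; single probe sets passed in the last 2 comparisons without 1 array, as given above. With doxycycline in SKBrM3 the count of genes passing was 1 (PTX3) with an intensity trend and 1 with array weights, and 0 to 1 when each array was left out; for the mean of both lines it was 1 with an intensity trend and 0 to 3. For CFB in SKBrM3 the mean of its 4 probe sets gave -0.044 and leaving out arrays -0.035 to 0.18. Leaving out each array in turn also changed the sign of these uncalled differences. In SKBrM3 SAA1 ran between -0.076 and 0.34. In 231BrM CFB ran between -0.49 and 0.028, C3 between -0.69 and 0.000835, and SAA1 between -0.64 and 0.055. In the difference of the effects C3 ran between -0.30 and 0.39, SOD2 between -0.033 and 0.13, PTX3 between -0.16 and 0.00555, SOD2 set C between -0.059 and 0.33 and SOD2 set B between -0.17 and 0.16. In the mean of both lines CFB ran between -0.21 and 0.050, SAA1 between -0.25 and 0.094 and shared SAA set B between -0.24 and 0.046. The cause was not tested. Over all genes the count called ran from 1 to 1650 in 231BrM, from 52 to 1631 in SKBrM3, from 0 to 473 for the difference and from 3323 to 9638 between the untreated lines, against 21, 446, 3 and 5167. Replicate numbers were shared between groups, but deviations of same-numbered arrays correlated at 0.239 in 231BrM, -0.01 in SKBrM3 and -0.06 between the untreated lines, so the numbers were not taken as pairs. With the replicate block the members called numbered 0 in SKBrM3, 0 in 231BrM, 0 in the difference and 4 between the untreated lines, while calls over all genes in SKBrM3 numbered 482, and HPX in SKBrM3 was at a limma adjusted p of 0.0625. An array with 1 partner left out leaves a lone array that is assumed to vary like the others.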
